A study of Homo sapiens with 8 samples.

Results

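Ribosome footprints of 293T cells treated with shNBD1, labelled a non-cleaving shRNA, were compared with those of the same cells under a control for shRNA. The comparison rests on 4 of the 8 libraries of the series, 2 in each group, chosen by their titles. 293T cells derive from human embryonic kidney and express the large T antigen of SV40. The cells of both groups were grown in high-glucose DMEM with serum and lysed with cycloheximide, a drug that stalls ribosomes during elongation. The other 4 libraries, miRNA inhibitors and their control, entered here for the shared estimate of the spread and for 1 comparison of effects. The labels do not spell out NBD1, do not say how the hairpin was delivered or for how long, and do not say that the 2 libraries of a group came from separate cultures. The p-values therefore rest on the spread between libraries, over all 8, and that spread may be technical.

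A short hairpin RNA is cut by Dicer into a guide strand that an Argonaute protein carries to mRNAs with complementary sequence. A fully paired guide in AGO2 cuts its target, whereas a guide paired mainly through its seed, as a microRNA is, represses translation and leads to deadenylation and decay without a cut. Hairpins can also act on mRNAs other than the intended one through such seed pairing, which is what is called an off-target effect. Ribosome profiling counts the fragments of mRNA that ribosomes protect, so a gene's count moves with the amount of its mRNA, with its translation, or with both. No matched RNA libraries were used here, and the counts cannot tell these apart.

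The 4 libraries held between 12060938 and 14806820 counts, and all 8 between 11218980 and 19854218. Between 5.99% and 7.25% of the counts of the 4 libraries lay in 2 rows, ZNF354B and ST8SIA1, more with shNBD1 (6.74% and 7.25%) than in the control (5.99% and 6.18%). Values below are CPM, a gene's counts as a share of the scaled library size, given as the first and the second library of a group, with n = 2 in each. Fold changes are on the log2 scale, shNBD1 over shRNA control, with the SE of edgeR's quasi-likelihood test, and a gene is called where its Benjamini-Hochberg adjusted p over 13306 genes was below 0.05. The row for the NBD1 reporter stood at 9129 and 9082 CPM in the control and at 7039.6 and 7233 CPM with shNBD1, so both shNBD1 libraries lay below both controls. Its fold change was -0.35 ± 0.07 (adjusted p = 0.00527), and the call was lost whichever of the 4 libraries was left out. Of 16 genes listed as markers of the 293T lineage, 14 were tested, 8 were called higher and SOX11 was called lower, while NEFL and LHX1 were at 0 in the 4 libraries. Their summed level was 7619 and 7667 CPM in the control and 11087 and 11743 CPM with shNBD1, with VIM, CKB and KRT8 as its most abundant members. Of 30 markers of other cell types, 15 were tested and 4 were at 0 throughout. DES was called higher and CD68 lower, and the list summed to between 529.7 and 588.3 CPM in the 4 libraries. The part of these marker changes in the results below was not tested.

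With shNBD1, 2440 of the 13306 genes tested were called (18.3%), 1222 higher (9.18%) and 1218 lower (9.15%). Most changes were small, with a median fold of 1.40 among the called genes. At least 2-fold higher were 182 genes (1.37%), and at least 2-fold lower were 148 (1.11%). The calls of smallest p leaned to falls, with 32 lower among the first 50, 63 among the first 100 and 114 among the first 200. The share called rose with the amount of reads, from 6.80% in the lowest to 25.6% in the highest of 5 equal groups of genes by mean count. On simulated counts the test found 94% of 2-fold changes and 64% of 1.5-fold changes, set only in genes averaging 50 counts or more. The simulation held far fewer changes than were called here, with 143 calls, so its rates need not hold for these data. Changes smaller than these can be missed. Leaving out 1 library cut the number of calls, to 532 (3.92%) without shRNA control replicate 1, with 1.96% of genes higher and 1.96% lower. It left 619 (4.56%; 2.39% higher, 2.17% lower) without shNBD1 replicate 2 and 716 (5.27%; 2.61% higher, 2.66% lower) without shRNA control replicate 2. Without shNBD1 replicate 1, 1022 were called (7.52%; 3.95% higher, 3.57% lower). Of the 2440 genes 445 were called in each of these 4 fits. DESeq2 called 12.8% of genes, 6.46% higher and 6.29% lower, and the 4 libraries fitted without the inhibitor arm gave 2725 genes higher with shNBD1 and 2589 genes lower with shNBD1. Counts of list members below are read against these shares. A gene given without a note on left-out libraries did not necessarily keep its call in those fits. Fits with 1 library left out kept the inhibitor arm, whose replicates lay further apart, so a lost call can also reflect its spread. The part of that spread in the lost calls was not tested.

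**Figure D1:**
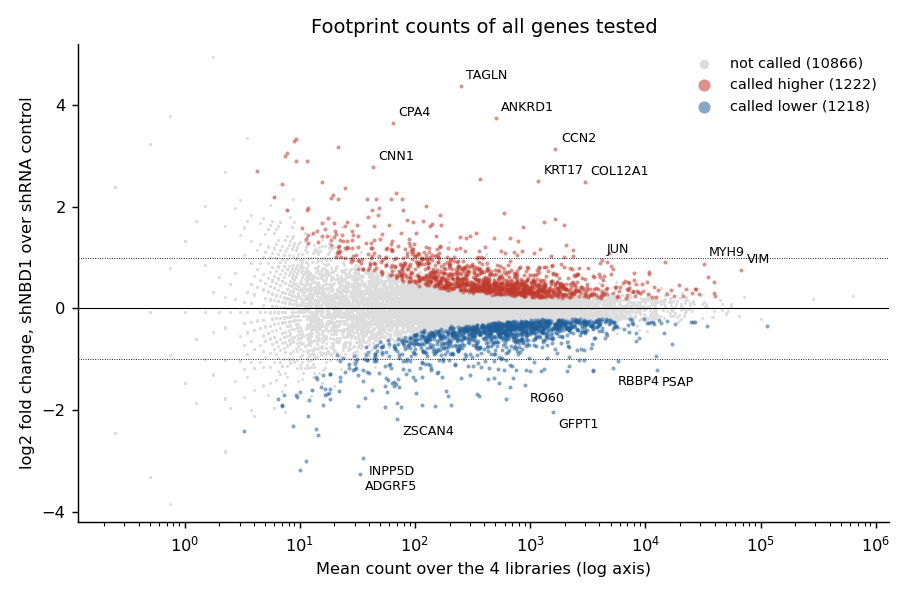
Each point is 1 of the genes tested, with its mean count over the 4 libraries on a log axis and its log2 fold change on the vertical axis; red and blue points were called higher (1222) and lower (1218), and dotted lines mark 2-fold. TAGLN, ANKRD1, CPA4 and CCN2 stand at the top, and ADGRF5 and INPP5D at the bottom; 4 genes with 0 counts in both libraries of a group lie outside the axis, 3 of them called, among them NPPB.

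The genes called were spread unevenly over cellular functions. Among 53 lists of genes that share a function or compartment, the highest shares of called-higher members were in focal adhesion (57.1%), matrix crosslinking and collagen processing (46.2%), Hippo pathway and targets (35.9%) and secreted matrix glycoproteins (35.1%). The highest shares of called-lower members were in p53 targets (53.3%), the vacuolar proton pump (36.8%), nuclear envelope and lamina (35.0%) and the hexosamine pathway (27.8%). The lists were written with earlier results of these data known, so these shares describe the data and are no test.

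**Figure D2:**
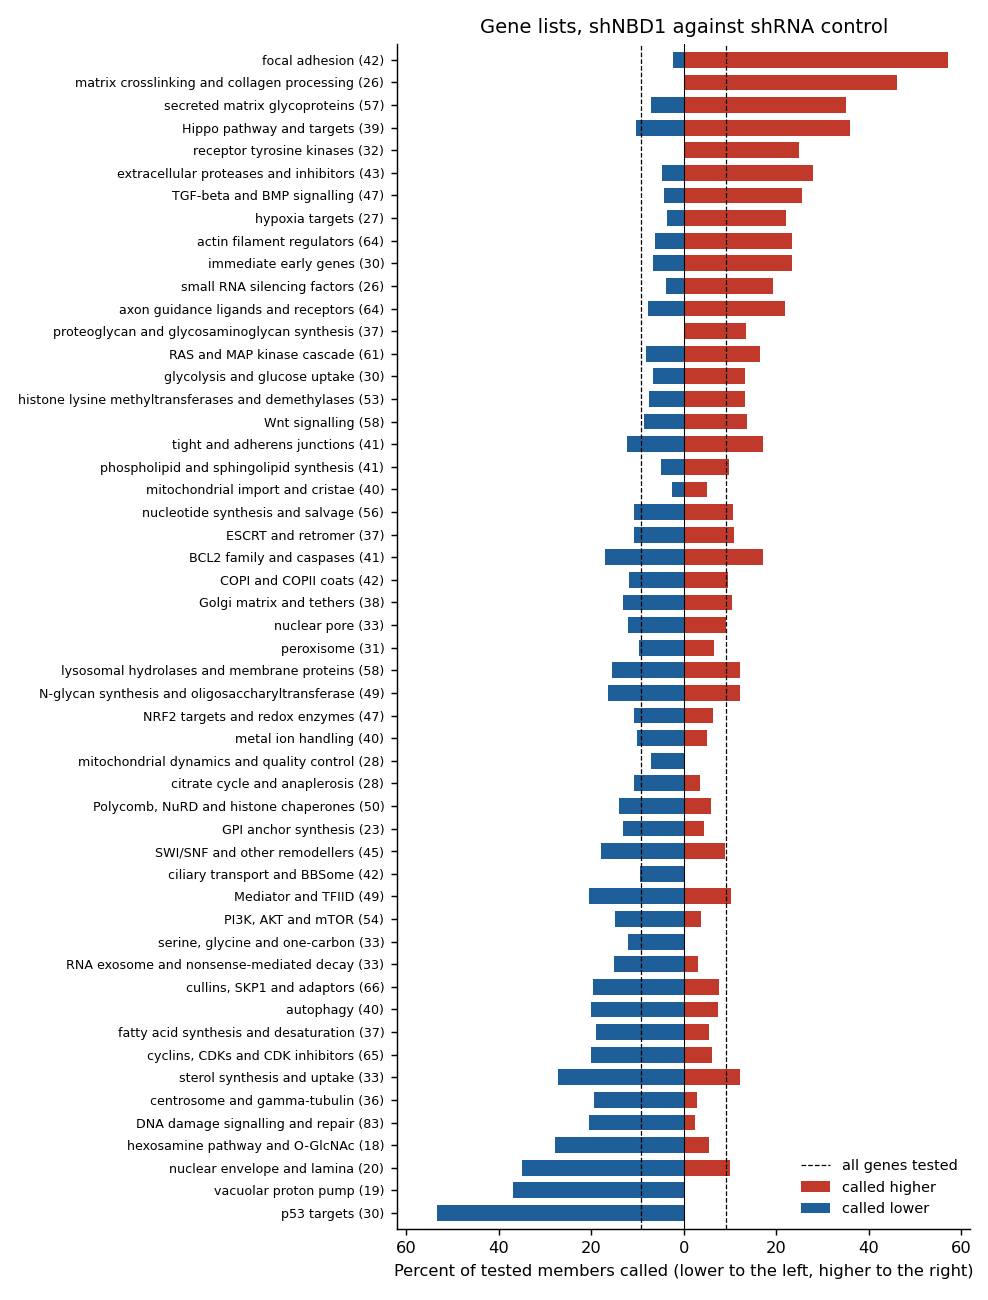
Bars give the percent of each list's tested members (number in brackets) called higher with shNBD1 (red, right) and called lower (blue, left); dashed lines mark the shares over all genes tested, 9.18% higher and 9.15% lower. Matrix, adhesion and cytoskeletal lists extend to the right and p53, proton pump, nuclear envelope and DNA repair lists to the left, with most other lists near the lines.

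Genes of the extracellular matrix were called higher with shNBD1 at a larger share than all genes. Of 57 secreted matrix glycoproteins tested, 20 were called higher and 4 lower (CCN3, FBLN5, LAMC3 and FREM2), against 9.18% and 9.15% of all genes, and the median fold change was 0.32 against 0.00 over all genes. CCN2, a secreted matricellular protein also known as connective tissue growth factor, stood at 23.6 and 23.5 CPM in the control and at 202 and 213 CPM with shNBD1. Its fold change was 3.14 ± 0.66 (adjusted p = 0.0092) and the call was lost without either control library or without shNBD1 replicate 2. CCN1, its relative, went from 45.3 and 42.3 to 143 and 144 CPM (1.71 ± 0.41, adjusted p = 0.0173), with the call lost whichever library was left out. The SE of CCN1 and CCN2 uses the spread over all 8 libraries, and their inhibitor replicates lay far apart. With the inhibitors CCN2 stood at 136 and 682 CPM and CCN1 at 70.8 and 231 CPM. Both genes kept their calls in the fit of the 4 libraries alone. EMILIN2, an elastic-fibre glycoprotein, rose from 51.5 and 53.4 to 179 and 175 CPM (1.76 ± 0.21, adjusted p = 0.000458). MATN3, a cartilage matrilin, rose from 3.59 and 3.36 to 14.2 and 14.02 CPM. LAMA1, a chain of basement-membrane laminin, rose from 62.1 and 62.4 to 102 and 98.5 CPM. The groups do not overlap in these genes, as the rule for naming them required. The calls of EMILIN2, MATN3 and LAMA1 held in all 10 alternative fits. Between 8 and 12 of the list's genes were called higher when 1 library was left out, fewest without shRNA control replicate 1.

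Collagens and the enzymes that crosslink them had a like share. Of 29 collagen genes, 10 were called higher and 2 lower, with a median of 0.42. COL5A1, a fibril-nucleating collagen, stood at 32.8 and 31.8 CPM in the control and at 67.1 and 71.6 CPM with shNBD1, a fold change of 1.10 ± 0.10 (adjusted p = 9.67e-05). COL5A2, which assembles with it, went from 2.72 and 2.95 to 6.26 and 6.12 CPM (1.13 ± 0.17). The network-forming chains of basement membrane, COL4A1 (1.10 ± 0.15), COL4A2 (0.92 ± 0.14), COL4A3, COL4A4 and COL4A6, were called higher too. COL21A1, a fibril-associated collagen, fell from 10.2 and 10.7 to 3.91 and 3.95 CPM (-1.41 ± 0.31, adjusted p = 0.0115), a call lost whichever library was left out. Of 26 genes that process or crosslink collagen, 12 were called higher. LOXL2, a lysyl oxidase that crosslinks collagen, rose from 19.1 and 18.7 to 48.6 and 50.8 CPM (1.39 ± 0.12, adjusted p = 7.69e-05), and TGM2, the tissue transglutaminase, from 4.32 and 3.19 to 10.6 and 10.6 CPM (1.48 ± 0.19). BMP1, which trims procollagen, rose by a smaller 0.55 ± 0.09, a call lost without shRNA control replicate 2. Left-out libraries reduced the crosslinking count to between 4 (without either control library) and 10 (without shNBD1 replicate 1) and the collagen count to 6 or 7.

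Of 43 extracellular proteases and their inhibitors, 12 were called higher, 2 lower (ADAMTS5 and ADAMTS7) and 29 neither. TIMP3, an inhibitor of metalloproteinases that binds the matrix, rose from 24.8 and 26.8 to 66.3 and 69.1 CPM (1.39 ± 0.16, adjusted p = 0.000429). ADAM19, a membrane metalloproteinase, went from 5.11 and 6.47 to 12.3 and 13.8 CPM (1.18 ± 0.16, adjusted p = 0.00104). SERPING1, the inhibitor of complement C1, went from 2.66 and 2.86 to 5.69 and 6.53 CPM (1.15 ± 0.19), a call lost without shRNA control replicate 1. Between 5 and 9 of these genes were called higher when 1 library was left out. Genes that build glycosaminoglycan chains included 5 called higher of 37, among them XYLT2, which starts the chain (13.8 and 16.3 to 24.5 and 25.2 CPM, 0.73 ± 0.11).

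Focal adhesions, where integrins link the matrix to actin, had the highest share of called-higher members among the lists. Of 42 focal adhesion genes tested, 24 were called higher, FERMT2 was the 1 called lower, and 37 had a positive fold change, with a median of 0.38. ITGA5, the fibronectin receptor's alpha chain, rose from 47.1 and 50.4 to 102 and 105 CPM (1.09 ± 0.10, adjusted p = 9.02e-05). ITGB3, the beta chain of the vitronectin receptor, rose from 1.86 and 2.13 to 8.11 and 9.53 CPM (2.15 ± 0.38, adjusted p = 0.00429), a call lost without shRNA control replicate 1. ITGA9 rose from 2.39 and 2.21 to 8.68 and 9.05 CPM (1.94 ± 0.17). Integrins are the transmembrane receptors that bind matrix proteins. PDLIM7, a LIM protein of the actin cytoskeleton, rose from 54.4 and 51.2 to 113 and 125 CPM (1.17 ± 0.19), and ZYX, zyxin, which marks mature adhesions, from 69.8 and 72.3 to 138 and 151 CPM (1.03 ± 0.21, adjusted p = 0.00841). The zyxin call was lost without either control library or without shNBD1 replicate 2. FLNA, the actin crosslinker filamin A, was far more abundant, at 1939 and 1963 CPM in the control and 2927 and 3104 CPM with shNBD1 (0.63 ± 0.15). Over the integrin family, 8 of 19 subunits were called higher, and ITGA8 fell from 46.4 and 45.8 to 27.3 and 27.8 CPM (-0.74 ± 0.17, adjusted p = 0.0134), a call lost whichever library was left out. Without shRNA control replicate 1 the focal adhesion count was 7 higher and 1 lower, and without shNBD1 replicate 1 it was 13 and 1.

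Of 64 actin filament regulators, 15 were called higher and 4 lower. TAGLN, the actin-binding protein transgelin, had the largest rise after NPPB among genes whose higher group averaged 50 counts or more, from 1.73 and 1.47 CPM in the control to 34.9 and 31.8 CPM with shNBD1. Its fold change of 4.37 ± 0.80 (adjusted p = 0.00486) lost its call without either control library. CNN1, calponin, another actin-binding protein of smooth muscle, rose from 0.664 and 0.900 to 5.48 and 5.17 CPM (2.77 ± 0.28, adjusted p = 0.000198). ACTA2, smooth-muscle actin, which stood among the markers of other cell types, had a fold change of 0.19 and was not called (adjusted p = 0.0899). Against these rises stood 2 clear falls of genes that act at filament ends and branches. CAPZA1, a subunit of the capping protein, fell from 126 and 125 to 53.97 and 52.9 CPM (-1.23 ± 0.07, adjusted p = 1.59e-05), and CORO1C, a coronin, from 259 and 257 to 130.3 and 126 CPM (-1.01 ± 0.07, adjusted p = 2.09e-05). Among myosin heavy chains 4 of 18 were called higher, among them MYH9, non-muscle myosin IIA, which went from 1575 and 1613 to 2885 and 2994 CPM (0.88 ± 0.16). The actin list had between 8 and 11 called-higher genes and 2 called-lower genes when 1 library was left out.

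Genes of the other filament systems were called higher too. Vimentin, the intermediate filament of mesenchymal cells and one of the most abundant footprints, rose from 3541 and 3588 CPM to 5900.2 and 6172 CPM for its gene VIM (0.76 ± 0.08, adjusted p = 0.000248). Of 16 keratins, 8 were called higher and 1 lower. KRT17, a keratin of injured and basal epithelium, rose from 25.96 and 22.9 to 131 and 147 CPM (2.50 ± 0.44, adjusted p = 0.00417) and held its call in all 10 alternative fits. KRT81, KRT83 and KRT86, hair keratins that lie next to each other, rose by 0.99 ± 0.15, 1.07 ± 0.22 and 1.11 ± 0.16, but their sequences are nearly identical and the counting of reads that match several of them is not stated, so they are uncertain as separate genes. Tubulins had 7 called higher of 18, including TUBB6 (133 and 133 to 202 and 219.8 CPM), TUBB2B (219.9 and 233 to 335 and 358 CPM) and the neuronal TUBB3 (0.45 ± 0.14). Annexins, which bind membranes in the presence of calcium, had 5 of 10 called higher, with ANXA3 at 32.6 and 31.1 CPM in the control and 80.1 and 79.2 CPM with shNBD1 (1.32 ± 0.19). Centrosome components went the other way, with 7 of 36 called lower (4 by DESeq2) and NINL higher. CEP57 fell from 29.9 and 31.8 to 19.3 and 17.6 CPM (-0.74 ± 0.11, adjusted p = 0.00151) and AKAP9, a scaffold of the centrosome and Golgi, from 114 and 117 to 83.3 and 77.2 CPM. The AKAP9 call was lost without either control library or without shNBD1 replicate 2. With 1 library left out, 4 or 5 keratins, between 2 and 3 tubulins and 3 annexins were called higher, and between 1 and 4 centrosome genes lower.

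**Figure D3:**
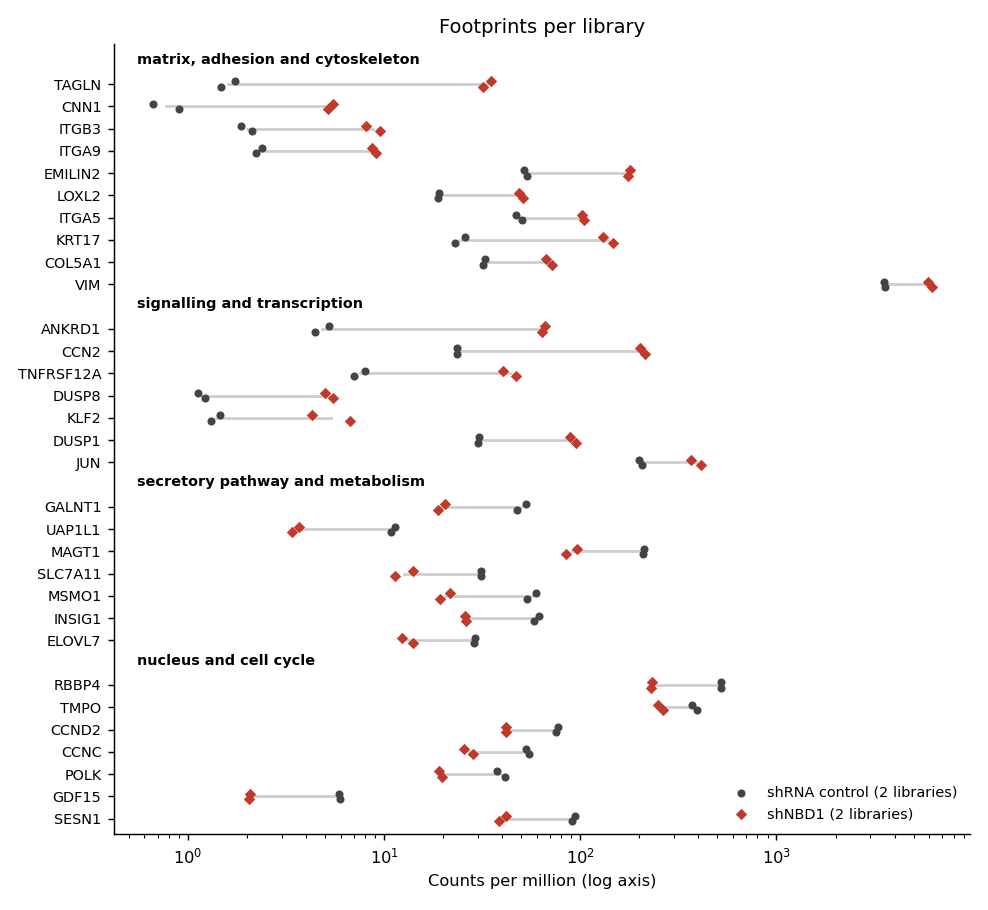
CPM on a log axis in each of the 2 shRNA control libraries (circles) and 2 shNBD1 libraries (diamonds), for 31 genes that the text describes; the grey line joins the geometric means. The shNBD1 libraries lie above the control libraries in the first 2 blocks and below them in the last 2; the groups do not overlap because the genes were chosen that way.

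The Hippo pathway, a kinase cascade that holds the coactivators YAP and TAZ out of the nucleus, had 14 of 39 genes called higher and 4 lower. The list mixes pathway components with genes that YAP and TAZ are known to raise together with TEAD factors. Among the target genes ANKRD1, a cardiac ankyrin-repeat protein, stood at 5.25 and 4.42 CPM in the control and 66.2 and 63.96 CPM with shNBD1 (3.74 ± 0.55, adjusted p = 0.0017), and held its call in all 10 alternative fits. AJUBA, a LIM protein that restrains the kinases, went from 10.2 and 11.05 to 22.6 and 25.7 CPM (1.18 ± 0.29, adjusted p = 0.019), a call lost whichever library was left out. The kinase LATS2, which inhibits YAP and TAZ, fell from 6.71 and 7.12 to 2.28 and 2.79 CPM (-1.44 ± 0.19, adjusted p = 0.00106). AMOT, angiomotin, which binds YAP in the cytoplasm, also fell, from 281 and 289 to 141 and 142 CPM (-1.01 ± 0.15), and YAP1 itself rose from 62.2 and 60.3 to 86.8 and 91.3 CPM (0.54 ± 0.12). The list thus held called genes of both roles and in both directions. Leaving out 1 library left between 2 and 5 called higher and 2 called lower.

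TEAD factors bind the letters CATTCC, or GGAATG on the other strand. In the RefSeq promoter table for GRCh38.p14, this motif lay within the 250 bases before the start of 11.9% of all 27305 promoters, of 9.31% of the 10373 tested genes with a promoter there, of 16.2% of those at least 2-fold higher and of 15.4% of those at least 2-fold lower. Among Hippo genes with a promoter it lay before 7 of 32 tested (21.9%) and 5 of 14 called. Among matrix glycoproteins with a promoter it lay before 10 of 43 tested (23.3%) and 6 of 15 called. Both lists thus held the motif at a larger share than all genes before any call was considered. The promoters of genes with large rises from those lists are printed 5′ to 3′ on the gene's strand, with each match in capitals and up to 40 bases on either side, cut at the far end of the 250 bases for ANKRD1 and EMILIN2. CCN2 lies at chr6:131951422-131951581 on the minus strand, ANKRD1 at chr10:90921170-90921337 on the minus strand, MATN3 at chr2:20012754-20012857 on the minus strand, THBS1 at chr15:39580993-39581078 on the plus strand and EMILIN2 at chr18:2846756-2846830 on the plus strand.
CCN2: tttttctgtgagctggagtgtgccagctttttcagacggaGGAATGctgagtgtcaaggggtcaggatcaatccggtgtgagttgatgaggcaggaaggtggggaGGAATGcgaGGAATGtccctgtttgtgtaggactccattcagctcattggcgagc
ANKRD1: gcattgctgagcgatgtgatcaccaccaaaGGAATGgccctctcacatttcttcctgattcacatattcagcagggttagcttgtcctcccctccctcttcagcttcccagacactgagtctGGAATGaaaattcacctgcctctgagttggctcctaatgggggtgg
MATN3: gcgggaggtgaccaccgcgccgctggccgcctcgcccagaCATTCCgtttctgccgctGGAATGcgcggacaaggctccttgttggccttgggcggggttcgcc
THBS1: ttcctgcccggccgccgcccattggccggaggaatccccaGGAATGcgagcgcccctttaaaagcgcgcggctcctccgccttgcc
EMILIN2: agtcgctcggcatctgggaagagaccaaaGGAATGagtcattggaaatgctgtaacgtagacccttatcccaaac
CCN2 has 3 matches in this stretch, ANKRD1 and MATN3 have 2 each, and THBS1 and EMILIN2 have 1 each. THBS1, thrombospondin, rose from 13.2 and 11.9 to 36.1 and 34.4 CPM (1.49 ± 0.22). A match is a description of the letters, not a bound site, and the motif was about as frequent before genes that fell at least 2-fold as before genes that rose.

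Immediate early genes and the phosphatases that switch off MAP kinases rose in part. Of 30 immediate early genes, 7 were called higher and 2 lower (IER5 and ZFP36L1). JUN, a component of the AP-1 transcription factor, rose from 199 and 205 to 368 and 411 CPM (0.94 ± 0.09, adjusted p = 0.000134). KLF2, a factor induced by flow in endothelium, rose from 1.46 and 1.31 to 4.27 and 6.67 CPM (1.97 ± 0.28), and ATF3, a stress-induced factor, from 17.9 and 15.4 to 33.8 and 33.3 CPM (1.01 ± 0.19). DUSP1, a nuclear MAP kinase phosphatase, stood at 30.6 and 30.2 CPM in the control and 88.8 and 95.3 CPM with shNBD1 (1.60 ± 0.27, adjusted p = 0.00352), and DUSP8, which acts on JNK and p38, at 1.13 and 1.23 and 4.98 and 5.51 CPM (2.15 ± 0.27). Both phosphatases and JUN held their calls in all 10 alternative fits. The small GTPase RRAS, which regulates integrins, rose from 8.57 and 9.17 to 17.7 and 18.2 CPM (1.02 ± 0.12). The immediate early count was 5 or 6 with 1 library left out.

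Some receptors and secreted signals were called higher. Among 32 receptor tyrosine kinases 8 were called higher, all by less than 2-fold, the largest being FGFR1 (30.5 and 33.8 to 49.6 and 48.6 CPM, 0.61 ± 0.09) and ERBB2 (42.1 and 46.8 to 63.7 and 65.7 CPM, 0.54 ± 0.08). In TGF-beta and BMP signalling 12 of 47 were called higher and 2 lower. TGFB2, a ligand, rose from 4.05 and 3.77 to 8.53 and 7.62 CPM (1.04 ± 0.22), and secreted antagonists of other ligands of the family rose too, FSTL3, which binds activins (1.26 and 1.72 to 4.55 and 6.06 CPM, 1.85 ± 0.42), and NOG, which binds BMPs (4.18 and 4.17 to 7.47 and 11.4 CPM, 1.18 ± 0.32). Those 3 calls were each lost without either control library, and between 0 (without shRNA control replicate 1) and 4 members of the list were called higher by edgeR with 1 library left out. The FSTL3 call was also lost without shNBD1 replicate 2. TNFRSF12A, the receptor of the cytokine TWEAK, rose from 7.97 and 7.04 to 40.5 and 47.2 CPM (2.54 ± 0.52, adjusted p = 0.00846), a call lost without either control library or without shNBD1 replicate 2. TNFRSF10C, a decoy receptor of TRAIL, fell from 15.4 and 15.96 to 6.90 and 8.51 CPM (-1.02 ± 0.18). Of 12 members of that family 4 were called higher and 3 lower, against 9.18% and 9.15% of all genes, with a median of 0.20. The 3 called lower were all TRAIL receptors.

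Axon guidance genes were called higher in 14 of 64 cases and lower in 5. Semaphorins and plexins, ligands and receptors that steer growth cones and cell migration, had 7 of 24 called higher and 2 lower. PLXNA4 went from 5.78 and 5.16 to 8.68 and 11.3 CPM (0.86 ± 0.19, adjusted p = 0.0122), a call lost without either control library or without shNBD1 replicate 2. SEMA4C went from 16.5 and 18.7 to 28.5 and 28.2 CPM (0.69 ± 0.11). Eph receptors differed, with EPHA7 falling from 201 and 216 to 111 and 104 CPM (-0.95 ± 0.12, adjusted p = 0.000838) and 3 of 18 ephrins and Eph receptors called lower. In Wnt signalling 8 of 58 were called higher and 5 lower. FZD7, a receptor, rose from 33.7 and 31.3 to 59.2 and 65.8 CPM (0.94 ± 0.17), a call lost without shNBD1 replicate 2 or without shRNA control replicate 2. VANGL1, a planar polarity protein, fell from 30.01 and 29.7 to 16.6 and 14.02 CPM (-0.96 ± 0.10, adjusted p = 0.000274). The cell-cell junction list had 7 called higher and 5 lower among 41, with the nectins NECTIN1 (0.95 ± 0.15) and NECTIN2 (0.64 ± 0.11) higher and their cytoplasmic partner AFDN lower (162 and 163 to 100.1 and 102 CPM, -0.68 ± 0.09). With 1 library left out, between 3 and 8 axon guidance genes, 1 and 6 Wnt genes and 2 and 4 junction genes were called higher.

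Along the secretory pathway, genes were called in both directions. Of 42 COPI and COPII genes 4 were called higher (9.52%) and 5 lower (11.9%), against 9.18% and 9.15% of all genes. Of 38 Golgi matrix and tether genes 4 were called higher (10.5%) and 5 lower (13.2%). The shares of these 2 lists lay near the background. Of 49 genes of N-glycan synthesis 6 were called higher (12.2%) and 8 lower (16.3%), and by DESeq2 3 and 3. SEC24A, a cargo adaptor of COPII vesicles, fell from 63.6 and 67.5 to 38.97 and 37.6 CPM (-0.77 ± 0.07, adjusted p = 0.000138), and TMED4, a cargo receptor, rose from 73.6 and 77.1 to 120.0 and 132 CPM (0.74 ± 0.09). COG6, of the Golgi tether COG, fell from 58.1 and 65.7 to 35.8 and 38.5 CPM (-0.74 ± 0.10) and the golgin GOLGA4 from 41.6 and 39.6 to 24.8 and 24.2 CPM (-0.73 ± 0.11). MAGT1, a subunit of the oligosaccharyltransferase that adds N-glycans, fell from 212 and 209 to 95.9 and 84.99 CPM (-1.22 ± 0.10, adjusted p = 6.63e-05). GALNT1, which starts O-glycans on secreted proteins, fell from 52.8 and 47.6 to 20.4 and 18.8 CPM (-1.36 ± 0.13, adjusted p = 0.000115), and GALNT7 from 77.8 and 79.7 to 60.2 and 52.8 CPM, while GALNT2 rose by 0.49 ± 0.11 and GALNT6 by 0.66 ± 0.19. All these genes apart from GALNT7, GALNT2 and GALNT6 held their calls in all 10 alternative fits.

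The hexosamine pathway makes UDP-GlcNAc, the sugar donor for glycans and for O-GlcNAc on nuclear and cytoplasmic proteins. Of its 18 genes 5 were called lower and GNE higher. GFPT1, the rate-limiting first enzyme, had the fall of smallest p among all genes, from 187 and 181 CPM to 47.4 and 42.6 CPM (-2.03 ± 0.08, adjusted p = 9.31e-07). UAP1L1, related to the enzyme of the last step, fell from 11.4 and 10.9 to 3.70 and 3.40 CPM (-1.65 ± 0.18, adjusted p = 0.000345), and RENBP, which acts on free N-acetylglucosamine, from 9.03 and 7.86 to 3.48 and 3.47 CPM (-1.28 ± 0.19). OGA, which removes O-GlcNAc, fell less, from 177 and 174 to 139 and 129 CPM (-0.39 ± 0.07, adjusted p = 0.00554). The calls of the first 3 held in all 10 alternative fits, and that of OGA was lost without either control library or without shNBD1 replicate 2. The list's median was -0.02, so the falls belonged to single members.

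Lysosomal genes split. Of 58 hydrolases and membrane proteins 7 were called higher and 9 lower, with a median of 0.00, while of 19 subunits of the vacuolar proton pump, which acidifies the lysosome, 7 were called lower and 0 higher by edgeR's quasi-likelihood test, with a median of -0.16. DESeq2 called 4 subunits lower and 0 higher, and at an unadjusted p below 0.05 edgeR had 9 lower and 2 higher. ATP6V1E1, a stalk subunit, fell from 211 and 216 to 99.5 and 96.01 CPM (-1.13 ± 0.07). The catalytic subunit ATP6V1A went from 146 and 152 to 113 and 106 CPM (-0.45 ± 0.07, adjusted p = 0.00266), a call lost without shNBD1 replicate 2. The membrane subunit ATP6V0A1 went from 177 and 175 to 138 and 128 CPM (-0.41 ± 0.07), a call lost without shNBD1 replicate 2 or without shRNA control replicate 1. PSAP, the precursor of the saposins, went from 1291 and 1232 to 546 and 544 CPM (-1.21 ± 0.07). M6PR, the receptor that carries hydrolases to lysosomes, fell from 129 and 138 to 90.9 and 84.9 CPM (-0.60 ± 0.07, adjusted p = 0.000458), and the hydrolase HEXA from 132 and 128 to 95.3 and 90.2 CPM (-0.49 ± 0.07). Without shNBD1 replicate 2, 1 pump subunit was called lower, and with any other library left out 2 or 4 were. Adaptor subunit AP3S1, of the AP-3 coat that sorts proteins to lysosomes, fell from 39.9 and 36.4 to 12.3 and 11.6 CPM (-1.67 ± 0.13, adjusted p = 3.86e-05).

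TFEB, the factor that raises lysosomal genes together, binds the letters TCACGTGA, which read the same on both strands. This motif lay before 0.890% of all promoters and 1.68% of tested genes with a promoter. Among lysosomal genes with a promoter it lay before 9 of 41 tested and 4 of 12 called. Of those 4, 2 fell and 2 rose, and their promoters are printed to show that the motif sat in genes of both directions, with matches in capitals. SCPEP1, at chr17:56978063-56978130 on the plus strand, fell from 76.4 and 69.98 to 29.2 and 27.7 CPM (-1.37 ± 0.09). LAMP1, at chr13:113297170-113297238 on the plus strand, fell from 347 and 343 to 252 and 256 CPM (-0.44 ± 0.06). GAA, at chr17:80101464-80101580 on the plus strand, rose from 71.6 and 72.8 to 90.5 and 97.2 CPM (0.38 ± 0.09), and PLBD2, at chr12:113358522-113358586 on the plus strand, rose from 72.1 and 68.3 to 95.8 and 97.3 CPM (0.46 ± 0.07).
SCPEP1: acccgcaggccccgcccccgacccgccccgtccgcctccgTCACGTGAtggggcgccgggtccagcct
LAMP1: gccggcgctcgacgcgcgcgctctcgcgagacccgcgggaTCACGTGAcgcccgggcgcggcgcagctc
GAA: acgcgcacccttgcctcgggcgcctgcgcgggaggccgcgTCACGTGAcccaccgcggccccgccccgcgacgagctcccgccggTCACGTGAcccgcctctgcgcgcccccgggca
PLBD2: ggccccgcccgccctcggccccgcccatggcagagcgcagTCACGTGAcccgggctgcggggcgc
The opposite directions are those of the gene's footprints and say nothing of whether the motif was bound.

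Lipid synthesis held several large falls. Of 33 genes of sterol synthesis and uptake 9 were called lower and 4 higher, with a median of -0.21. MSMO1, a demethylase of the late pathway, fell from 59.4 and 53.7 to 21.7 and 19.3 CPM (-1.47 ± 0.16, adjusted p = 0.00027), and INSIG1, which holds the sterol sensor in the endoplasmic reticulum, from 61.9 and 58.03 to 25.9 and 26.2 CPM (-1.20 ± 0.18, adjusted p = 0.00176). IDI1 went from 235 and 233 to 138 and 129 CPM (-0.82 ± 0.17), a call lost whichever library was left out. Fatty acid genes had 7 of 37 called lower and 2 higher. SCD5, a desaturase, fell from 60.96 and 58.7 to 29.6 and 29.6 CPM (-1.02 ± 0.09, adjusted p = 7.34e-05), ELOVL7, an elongase, from 29.02 and 28.6 to 12.3 and 13.9 CPM (-1.13 ± 0.11), and ACSL4, which activates arachidonic acid, from 87.8 and 87.9 to 53.5 and 52.9 CPM (-0.72 ± 0.07). Between 2 and 4 sterol genes and between 3 and 4 fatty acid genes were called lower with 1 library left out.

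In redox and central metabolism the lists lay near the background, with single genes apart from it. SLC7A11, the cystine importer, fell from 31.2 and 31.1 to 14.01 and 11.3 CPM (-1.30 ± 0.15, adjusted p = 0.000458), and HMOX1, heme oxygenase, from 44.2 and 44.1 to 19.6 and 19.5 CPM (-1.18 ± 0.19, adjusted p = 0.00258). Ferritin heavy chain FTH1 went from 54.3 and 50.7 to 33.8 and 36.2 CPM (-0.59 ± 0.11) and metallothionein MT1X from 27.4 and 34.5 to 17.3 and 19.7 CPM (-0.74 ± 0.13). BACH1, a repressor of HMOX1, rose from 44.03 and 42.97 to 59.4 and 57.9 CPM (0.43 ± 0.09, adjusted p = 0.00733), a call lost whichever library was left out. The glucose importers moved apart, with SLC2A3 falling from 50.7 and 56.7 to 34.3 and 32.9 CPM (-0.67 ± 0.11) and SLC2A1 rising from 135 and 143 to 195 and 203 CPM (0.51 ± 0.11), a call lost whichever library was left out, and hexokinase HK2 rose from 32.3 and 27.9 to 51.8 and 52.7 CPM (0.79 ± 0.11). In the citrate cycle IDH1, the cytosolic isocitrate dehydrogenase, fell from 159 and 161 to 88.2 and 85.4 CPM (-0.88 ± 0.14) and FH, fumarase, from 78.8 and 77.7 to 54.5 and 51.03 CPM (-0.57 ± 0.08). Purine salvage also moved apart, with PNP at 558 and 556 CPM in the control and 275 and 270.1 CPM with shNBD1 (-1.03 ± 0.06) and APRT rising by 0.79 ± 0.16. The APRT call was lost without either control library or without shNBD1 replicate 2. SLC7A11, HMOX1, SLC2A3, HK2, IDH1, FH and PNP held their calls in all 10 alternative fits.

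The p53 targets that were called were lower. Of 30 p53 targets 16 were called lower and 0 higher by edgeR's quasi-likelihood test, with a median of -0.45, in cells whose large T antigen binds p53. DESeq2 also called 16 lower and 0 higher, and at an unadjusted p below 0.05 edgeR had 22 lower and 1 higher. GDF15, a secreted stress cytokine, fell from 5.91 and 5.98 to 2.06 and 2.04 CPM (-1.53 ± 0.20, adjusted p = 0.000992), and SESN1, an inhibitor of mTORC1 signalling, from 94.1 and 91.02 to 41.9 and 38.4 CPM (-1.20 ± 0.17). EDA2R, a receptor, went from 7.30 and 7.86 to 3.06 and 4.35 CPM (-1.02 ± 0.21) and DDB2, which recognises ultraviolet damage, from 60.03 and 60.2 to 34.6 and 33.5 CPM (-0.82 ± 0.17, adjusted p = 0.00818), calls that were lost without 3 and 4 of the single libraries. CDKN1A, the p21 inhibitor of CDKs, fell by less, from 245 and 233 to 170.3 and 201 CPM (-0.36 ± 0.09). With the miRNA inhibitors the median of the same list was -0.21. Between 5 (without shRNA control replicate 1) and 8 p53 targets were called lower with 1 library left out.

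Among DNA repair genes small falls were the more common call. Of 83 genes of DNA damage signalling and repair 17 were called lower and 2 higher (UNG and ERCC2), and 65 had a negative fold change, with a median of -0.15. POLK, a polymerase that bypasses lesions, fell from 37.6 and 41.5 to 19.1 and 19.7 CPM (-1.03 ± 0.14, adjusted p = 0.00132), and XPA, of excision repair, from 14.7 and 15.2 to 7.54 and 9.53 CPM (-0.81 ± 0.16). RAD1, of the clamp that loads at damaged DNA, fell from 51.99 and 54.5 to 24.1 and 22.3 CPM (-1.20 ± 0.09, adjusted p = 3.63e-05), and TDG, a glycosylase of base excision repair, from 102 and 103 to 61.2 and 60.8 CPM (-0.74 ± 0.07, adjusted p = 8.55e-05). DESeq2 called 11 of the repair genes lower, and between 1 and 3 were called with 1 library left out, fewest without shRNA control replicate 1. Among 65 cyclins, CDKs and inhibitors 13 were called lower and 4 higher. CCND2, a cyclin of G1, fell from 76.6 and 75.5 to 41.7 and 41.9 CPM (-0.86 ± 0.09, adjusted p = 0.000204), and CCNC, the cyclin of Mediator's kinase module, from 52.7 and 54.8 to 25.7 and 28.5 CPM (-0.99 ± 0.09, adjusted p = 0.000138). Both held their calls in all 10 alternative fits, and between 3 and 5 members of that list were called lower with 1 library left out.

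Several nuclear structures contained genes of both directions. In the nuclear envelope 7 of 20 were called lower and 2 higher. TMPO, which makes lamina-associated polypeptides, fell from 371 and 393 to 248 and 263 CPM (-0.58 ± 0.08, adjusted p = 0.000964) and LMNB1, lamin B1, from 437 and 426 to 322 and 329 CPM (-0.41 ± 0.11), whereas SUN2, which links the envelope to the cytoskeleton, rose from 99.5 and 104 to 179 and 179.8 CPM (0.82 ± 0.07). With 1 library left out, 1 or 2 envelope genes were called lower. NUP50, of the nuclear pore basket, fell from 121 and 114 to 76.02 and 76.8 CPM (-0.62 ± 0.07, adjusted p = 0.000327), and NUP210, of the pore membrane, rose from 207 and 203 to 269 and 266 CPM (0.38 ± 0.06). Mediator and TFIID had 10 of 49 called lower, among them MED14, the backbone of Mediator (312 and 325 to 215 and 208 CPM, -0.59 ± 0.07), and MED23 (-0.49 ± 0.09), and 5 higher (3 by DESeq2).

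Chromatin genes were called in both directions. Of 50 Polycomb, NuRD and histone chaperone genes 7 were called lower and 3 higher, and of 45 SWI/SNF and other remodellers 8 (5 by DESeq2) and 4. RBBP4, a histone-binding subunit shared by several of these complexes, went from 524 and 521 to 231 and 230.4 CPM (-1.18 ± 0.08), PBRM1, which reads acetylated histones in SWI/SNF, from 101 and 103 to 70.9 and 68.8 CPM (-0.55 ± 0.09), and CHD2, a remodeller, from 55.9 and 55.5 to 36.98 and 36.7 CPM (-0.60 ± 0.10). BMI1, of Polycomb complex 1, went from 45.1 and 43.1 to 30.9 and 31.4 CPM (-0.50 ± 0.11), a call lost whichever library was left out. SR and hnRNP proteins, which direct splicing, had 9 of 32 called lower and SRSF2 higher, each by a small step, as for HNRNPH1 (551 and 520.2 to 420.3 and 394 CPM, -0.40 ± 0.07). No more than 1 of those splicing factors was called lower with 1 library left out.

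Zinc-finger genes with a ZNF symbol, most of which encode DNA-binding repressors with a KRAB domain, formed the largest family examined. Of 446 tested 70 were called lower (15.7%, against 9.15% of all genes) and 9 higher, with a median of -0.22. Many KRAB genes lie in clusters on chromosome 19. There 57 of 228 ZNF genes were called lower (25.0%) and 1 higher, with a median of -0.35. On the other chromosomes 13 of 218 were called lower (5.96%) and 8 higher, with a median of -0.05. Other genes of chromosome 19 went the opposite way, with 93 of 716 called higher and 29 lower and a median of 0.15. ZNF genes have fewer reads than most genes, yet among those averaging 200 counts or more the share called lower was 16.0%, against 11.9% of all genes at that depth. DESeq2 called 33 ZNF genes lower (7.40%, against 6.29% of all genes), 23 of them on chromosome 19 (10.1%). Without shRNA control replicate 1 the count was 8 (1.79%, against 1.96% of all genes) and without shNBD1 replicate 2 it was 13 (2.91%, against 2.17%). Without shRNA control replicate 2 it was 16 (3.59%, against 2.66%), and without shNBD1 replicate 1 it was 25 (5.61%, against 3.57%). Over the whole family, the share called lower was thus below that of all genes only without shRNA control replicate 1. The median of the chromosome 19 genes lay between -0.41 and -0.35 in the fits with 1 library left out. Many of these genes have near-identical copies, and how reads that match several of them were counted is not stated, so single members are uncertain. With the miRNA inhibitors the median of the family was 0.00.

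**Figure D4:**
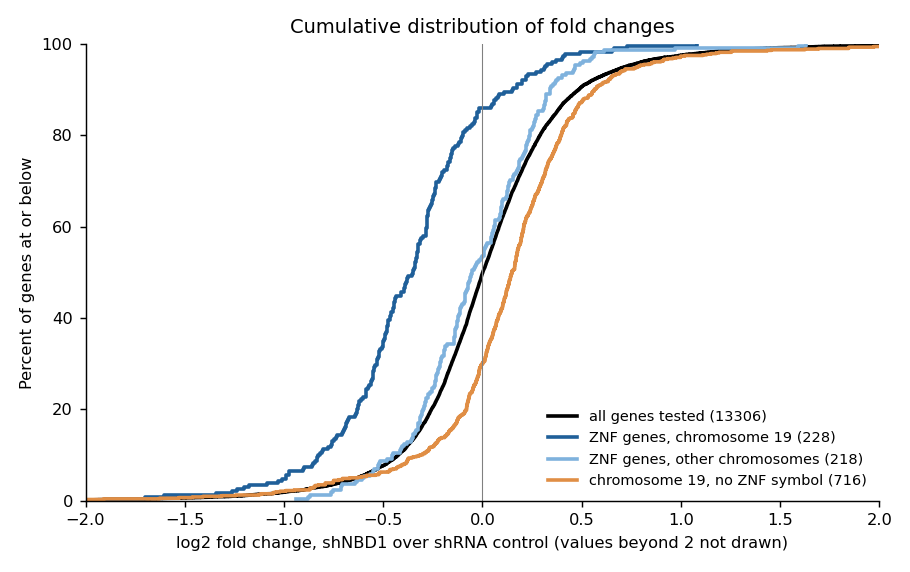
Curves give the percent of genes at or below each log2 fold change, for all genes tested (black), ZNF genes on chromosome 19 (dark blue), ZNF genes on other chromosomes (light blue) and chromosome 19 genes with no ZNF symbol (orange). The dark blue curve lies to the left, with a median of -0.35, and the orange curve to the right, with a median of 0.15.

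Position and base composition moved with the fold changes and are given as measured. By the GC content of the 250 bases before the start, the share called higher was 7.53% in the lowest of 5 equal groups of genes and 14.4% in the highest, and the share called lower 10.1% and 6.64%. The median fold change went from -0.03 to 0.08 over the same groups, and with the inhibitors from -0.01 to 0.01. Chromosome 16 had 15.5% of 569 genes called higher and 3.69% lower, and chromosome 22 had 15.7% and 6.09%. Chromosome 13 had 4.11% of 219 genes called higher and 16.4% lower, and chromosome X 6.98% and 16.2%. How these shares relate to the list counts above was not tested.

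Other families stood out less evenly. TRIM proteins, mostly ubiquitin ligases, had 10 of 53 called lower and 4 higher. TRIM49 fell from 8.43 and 7.20 to 2.35 and 1.97 CPM (-1.86 ± 0.25, adjusted p = 0.00101) and TRIM48 from 3.59 and 3.85 to 0.782 and 1.16 CPM (-1.92 ± 0.34), members of a cluster of near-identical copies that may share reads. ABC transporters had 7 of 28 called higher and 2 lower. ABCA3, a lipid transporter, rose from 19.1 and 19.2 to 30.6 and 33.5 CPM (0.75 ± 0.12, adjusted p = 0.00258). ABCA13 stood at 43.4 and 46.9 CPM in the control and at 26.3 and 8.44 CPM with shNBD1, so its shNBD1 libraries differed by more than the smaller of them, and its call (-1.38 ± 0.34, adjusted p = 0.0193) was lost with DESeq2 and without either control library. Without shNBD1 replicate 1 its fold change was -2.42, and without shNBD1 replicate 2 it was -0.77. Cullins, SKP1 and their adaptors, the parts of modular ubiquitin ligases, had 13 of 66 called lower and 5 higher, with KLHL15 going from 137 and 138 to 87.9 and 84.8 CPM (-0.67 ± 0.08, adjusted p = 0.000473). Without shNBD1 replicate 2 or without shRNA control replicate 1, 1 member of the cullin list was called lower.

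Several large groups had fewer called members than the 18.3% of all genes. Mitochondrial import and cristae genes had 3 called of 40, mitochondrial dynamics and quality control 2 of 28 and mitochondrial ribosomal proteins 6 of 78. Ciliary transport had 4 of 42, all lower, DNAJ chaperones 1 of 39, leucine-rich LRRC proteins 1 of 40, potassium channels 3 of 39 and RNF ligases 6 of 67. Potassium channels and LRRC proteins had medians of 16.2 and 59.2 counts per library, while the 3 mitochondrial groups had medians between 612 and 979.6 counts. PHB2, prohibitin of the inner mitochondrial membrane, was an exception within its list and fell from 249 and 249 to 179.8 and 183 CPM (-0.46 ± 0.07, adjusted p = 0.00141). TMEM70, which assists assembly of ATP synthase, fell from 71.1 and 66.7 to 31.3 and 31.4 CPM (-1.14 ± 0.08), and 8 of 31 subunits of cytochrome oxidase and ATP synthase were called lower, against 1 or 2 with 1 library left out.

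Of 26 factors of small RNA silencing, 5 were called higher and DHX9 lower. LIN28B, which blocks the maturation of let-7, rose from 6.71 and 7.94 to 15.8 and 15.1 CPM (1.08 ± 0.13, adjusted p = 0.000677), and ANKRD52, of the phosphatase that acts on Argonaute, from 67.2 and 70.2 to 118 and 122 CPM (0.81 ± 0.07). AGO1, an Argonaute, went from 39.97 and 37.9 to 49.6 and 53.5 CPM (0.40 ± 0.09, adjusted p = 0.0118), a call lost without either control library or without shNBD1 replicate 2. AJUBA, given above, had the list's largest rise (1.18 ± 0.29). Outside this list, DCP2, the enzyme that removes the mRNA cap, fell from 93.6 and 95.3 to 48.9 and 46.7 CPM (-0.98 ± 0.08, adjusted p = 5.8e-05). CNOT11, of the deadenylase complex and also outside the list, fell from 66.7 and 66.1 to 30.9 and 30.2 CPM (-1.12 ± 0.08, adjusted p = 3.82e-05).

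Falls of small p belonged to many functions. Beyond the first 12 by p, the next 18 that fell had fold changes between -1.73 and -0.74, and each held its call in all 10 alternative fits. RO60, which binds misfolded small RNAs, fell from 95.95 and 95.5 to 35.1 and 32.1 CPM (-1.51 ± 0.10, adjusted p = 2.12e-05). ANKFY1, an endosomal effector of RAB5, fell from 133 and 133 to 67.98 and 67.2 CPM (-0.98 ± 0.07, adjusted p = 2.95e-05), and TMEM87B, a Golgi membrane protein, from 22.9 and 20.3 to 7.04 and 6.06 CPM (-1.73 ± 0.13, adjusted p = 3.86e-05). The kinase SLK fell from 135 and 127 to 60.7 and 54.4 CPM (-1.19 ± 0.09) and the kinase HIPK3 from 26.5 and 26.3 to 9.81 and 10.5 CPM (-1.37 ± 0.11). GLO1, which detoxifies methylglyoxal, fell from 271 and 268 to 157 and 148 CPM (-0.82 ± 0.06), IARS1, which charges tRNA with isoleucine, from 313 and 302 to 185 and 172 CPM (-0.79 ± 0.07), and CACNA2D1, a calcium channel subunit, from 45.4 and 48.4 to 23.4 and 22.5 CPM (-1.03 ± 0.09). GPR50, a receptor related to the melatonin receptors, fell from 69.6 and 74.2 to 25.8 and 23.7 CPM (-1.54 ± 0.12), and PRR14L from 104 and 105 to 47.7 and 52.7 CPM (-1.06 ± 0.08). For 17 of these 18 genes, GPR50 being the exception, the fold change with the inhibitors lay between -0.21 and 0.34.

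Falls were also ranked by size, over genes whose higher group averaged 50 counts or more. ADGRF5, an adhesion receptor, fell from 5.25 and 3.36 to 0.498 and 0.408 CPM (-3.25 ± 0.36, adjusted p = 0.000328), INPP5D, the phosphatase SHIP1, from 4.85 and 4.34 to 0.569 and 0.612 CPM (-2.95 ± 0.37), and ZSCAN4, a factor of early embryos, from 9.10 and 7.20 to 1.14 and 2.45 CPM (-2.18 ± 0.30). GPNMB, a membrane glycoprotein of lysosomes and melanosomes, went from 9.56 and 7.53 to 1.92 and 2.52 CPM (-1.95 ± 0.26), CRABP1, which binds retinoic acid, from 6.24 and 6.30 to 1.49 and 1.77 CPM (-1.94 ± 0.20), and GRHL3, an epithelial transcription factor, from 13.7 and 12.4 to 3.13 and 3.88 CPM (-1.90 ± 0.19). These 6 genes held their calls in all 10 alternative fits. Whether any of the falls lie in mRNAs with a match to the hairpin was not tested, because neither the sequence of shNBD1 nor the untranslated regions of the mRNAs were used here.

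Among the largest rises NPPB, the precursor of brain natriuretic peptide, had 0 counts in both control libraries and 73 and 72 counts with shNBD1. Against a floor of 3 counts per library it was at least 22.7-fold higher (adjusted p = 0.0107). The call was lost whichever library was left out, and in the inhibitor arm the gene had 0 and 22 counts in the control and 13 and 49 with the inhibitors. CPA4, a carboxypeptidase, rose from 0.664 and 0.655 to 8.04 and 8.57 CPM (3.64 ± 0.70, adjusted p = 0.00597), a call lost without either control library. Its SE uses the spread over all 8 libraries. In the inhibitor arm its replicates lay far apart, at 1.64 and 4.70 CPM in the control and 5.69 and 16.4 CPM with the inhibitors. SYNPO, synaptopodin, which binds actin, rose from 1.06 and 0.900 to 5.05 and 3.81 CPM (2.15 ± 0.38). Rises of small p past the first 12 included OLFML2A, a secreted olfactomedin-like protein (4.52 and 4.91 to 13.9 and 14.97 CPM, 1.62 ± 0.14), GJA1, the gap junction protein connexin 43 (80.5 and 76.8 to 143 and 139 CPM, 0.84 ± 0.08), HSD17B10, a mitochondrial dehydrogenase (165 and 169 to 282 and 294 CPM, 0.79 ± 0.07), and CKAP4, a protein of the rough endoplasmic reticulum (118 and 125 to 202 and 213 CPM, 0.77 ± 0.08). PLAC1, a placental protein, rose from 5.18 and 6.30 to 18.6 and 17.1 CPM (1.65 ± 0.16, adjusted p = 0.000166).

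The miRNA inhibitor arm, which shares no library with this comparison, gives the effects of another treatment that acts on small RNAs. Of 13306 genes 990 (7.44%) differed between the effect of shNBD1 and that of the inhibitors in a test of the difference itself, 463 (3.48%) more positive with shNBD1 and 527 (3.96%) more negative. Leaving out 1 of the 4 libraries reduced this to 187 without shRNA control replicate 1, 199 without shNBD1 replicate 2, 214 without shRNA control replicate 2 and 335 without shNBD1 replicate 1. Of the 182 genes at least 2-fold higher with shNBD1, 74 (40.7%) differed, and their median fold change with the inhibitors was 0.20. Of the 148 at least 2-fold lower, 83 (56.1%) differed, with a median of -0.04 with the inhibitors. Both sets were picked by their shNBD1 fold change, which is part of the difference tested. Shares above the 7.44% of all genes and smaller medians with the inhibitors were expected from that choice. They are no result about these genes. Replicates lay further apart in the inhibitor arm, where the median SD of log2 CPM between replicates was 0.11 and 0.12, against 0.06 in the shRNA control and 0.07 with shNBD1. ITGA9 (1.94 ± 0.17 with shNBD1, -0.10 with the inhibitors, adjusted p of the difference = 0.0019), CNN1 (0.09 with the inhibitors, 0.00248) and CORO1C (0.17, 0.000204) were among those that differed. For CCN1 (1.59 with the inhibitors, adjusted p of the difference = 0.93), CCN2 (2.57, 0.741) and ANKRD1 (1.95, 0.161) the difference did not pass the threshold, which does not show that the effects were alike. LATS2 had -1.44 ± 0.19 with shNBD1 and 0.61 with the inhibitors (adjusted p of the difference = 0.0017), and CCND2 -0.86 ± 0.09 and 0.31 (adjusted p of the difference = 0.000638).

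**Figure D5:**
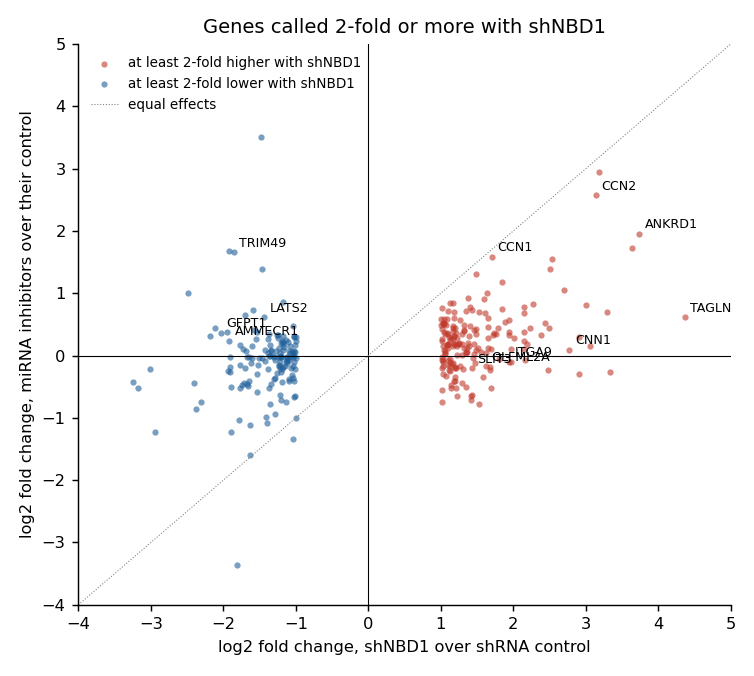
Each point is a gene called at least 2-fold higher (red) or lower (blue) with shNBD1, with its log2 fold change in this comparison on the horizontal axis and that of the miRNA inhibitors over their control on the vertical axis; 3 genes with 0 counts in a group lie outside the axes. Most points lie near 0 on the vertical axis, with medians of 0.20 and -0.04, while CCN1 and CCN2 lie near the dotted line of equal effects. The genes were picked by their value on the horizontal axis, so smaller vertical values were expected.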

How the data were processed

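Ribosome-protected fragments were counted in 8 libraries of 293T cells, of which the 2 shRNA control and the 2 non-cleaving shNBD1 libraries, grouped by their labels, are compared here. The authors deposited a table of whole-number counts per feature for each library, with cutadapt and Bowtie and the build GRCh38 named, per the submitters' processing notes. The tools' versions and roles, and the counting of reads that match several features, were not given in the sources used here. Rows were summed per gene symbol (18037 features, 17179 symbols), and absent rows were taken as 0. Genes were kept at a minimum count of 10 in the smallest group and of 15 in total (filterByExpr), which left 13306. All 8 libraries were fitted together (4 residual degrees of freedom) with TMM scaling and edgeR's quasi-likelihood test (edgeR 4.0.16, limma 3.58.1, R 4.3.3), with Benjamini-Hochberg adjustment over all of these genes. CPM values refer to library sizes after TMM. DESeq2 1.42.0, 4 other fits, the replicate number as a block and leaving out each library were alternatives.

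The members, lists and families were chosen with earlier results of these data known, and the family patterns were narrowed after first counts to drop genes that are not members. Named genes are the called genes whose libraries did not overlap between groups and whose higher group averaged 50 counts or more. They are ranks 13 to 30 by p in each direction, the 12 largest changes in each direction, the 4 most changed called members per list or per family past 1.5 times the background share, 6 in each direction by p of the difference from the inhibitors, genes at 0 in a group, and the reporter. AMOT, CDKN1A, COL4A1, COL4A2, FLNA, GAA, LAMP1, PLBD2, THBS1, YAP1 and the marker and other list members named without values were chosen after their values were seen. Promoter sequences are from the RefSeq table for GRCh38.p14, which matched 10373 tested genes. Counts were simulated for 13127 genes of this comparison, with changes set only in genes averaging 50 counts or more. There the fit recovered 64% of changes of 1.5-fold, 94% of 2-fold and 100% of 4-fold, and 8 of 143 calls were unchanged genes. A few genes and 1 gene list are not reported here.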

Additional observations from a re-analysis of the deposited data

Results flagged for a closer look

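The effect of shNBD1 differed from that of the miRNA inhibitors, each against its own control, in a test of the difference across all genes, with 463 genes more positive and 527 more negative with shNBD1. Among genes called with shNBD1, those of smallest p for this difference are given as the shNBD1 minus the inhibitor log2 fold change. The shNBD1 effect that picked them is part of the difference tested. On the positive side they were SLIT3 (1.63), TMOD1 (1.66), OLFML2A (1.79), KIF5C (1.22), PLAT (1.03) and GJA1 (0.96). On the negative side they were GFPT1 (-2.40), AMMECR1 (-2.15), ENPP4 (-1.95), TMEM70 (-1.39), CAPZA1 (-1.35) and PNP (-1.10). The groups of 2 libraries are too small for a check of single samples that stand apart. The cause of these differences was not tested.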

How the results depend on the processing

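Of the 289 genes that the naming rule chose, 141 kept their call in all 10 alternatives; the rule required groups that do not overlap, so their direction is no sign of stability. Calls were lost for 26 genes with DESeq2, 15 with library totals as the scaling, 1 with no filter on low counts and 0 with RLE scaling, the 4 libraries alone or the block. Leaving out a library lost 86 (shNBD1 replicate 1), 122 (shNBD1 replicate 2), 139 (shRNA control replicate 1) and 121 (shRNA control replicate 2). The 4 libraries fitted alone gave 2725 genes higher with shNBD1 and 2589 genes lower with shNBD1. With 1 library left out, where the lone sample is assumed to vary like the other groups, genes higher ranged from 266 to 537, lower from 266 to 485, at least 2-fold higher from 85 to 130, at least 2-fold lower from 87 to 103, and different from the inhibitors from 187 to 335. The replicate numbers were not taken as pairs. Deviations of same-numbered shRNA control and shNBD1 libraries correlated at 0.015, while inhibitor control and inhibitors correlated at 0.42, shNBD1 and inhibitor control at 0.16, and shNBD1 and inhibitors at 0.13. With the replicate number as a block 1729 genes were higher and 1679 lower, and the count of genes whose shNBD1 effect differs from the inhibitor effect was 1868. Library totals moved the median of all genes to -0.03. Depth limits calls among genes of few reads, of which 6.80% were called in the lowest of 5 groups by mean count.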
